A study of Mus musculus with 7 samples.

Results

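The 28 genes described here encode enzymes of cholesterol synthesis, the proteins that control that pathway through the SREBP transcription factors, and a few carriers and pumps that move sterols. They were chosen by gene symbol, all 28 were found among the 54532 genes of the deposited count table, and 27 of them passed the filter on low counts. Bulk RNA-seq had been carried out on kidneys of male C57BL/6J mice 6 to 8 weeks old. The kidneys labelled DXZ (3 libraries) came from mice given cisplatin at 20 mg/kg into the tail vein and DXZ, also into the tail vein, at 40 mg/kg, first 30 min ahead of cisplatin and then at 24 h intervals for 3 days. The kidneys labelled saline (4 libraries) also came from cisplatin-treated mice. The labels do not spell out DXZ, and all 7 libraries are from cisplatin-treated mice, so neither group can be set against an untreated kidney. Nothing in the labels says that each library is a separate animal, so a p-value measures the spread between these samples, part of which may be technical.

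Cells make cholesterol from acetyl-CoA. The mevalonate steps give isoprenoid units, farnesyl diphosphate is joined to squalene, and squalene is cyclised to lanosterol and trimmed to cholesterol. SREBP-2, encoded by Srebf2, switches on nearly all of these enzymes when membrane sterol is low: SCAP escorts it out of the endoplasmic reticulum, and INSIG proteins hold it back when sterol is plentiful. Surplus sterol, sensed as oxysterols by the LXR receptors, induces the efflux pumps ABCA1 and ABCG1. The proximal tubule, the segment that cisplatin injures most, can both make cholesterol and take it up.

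SREBP-2 usually acts at promoters together with NF-Y, which binds the letters CCAAT, and with Sp1. The promoter windows below are shown for Nsdhl, which fell in DXZ kidneys, for Lss, whose groups were apart, and for Hmgcs1 and Insig1, textbook SREBP targets that did not pass the test. Each is the stretch up to 250 bases ahead of the RefSeq start site, without bases that lie inside the gene as deposited (RefSeq, GRCm38.p6, all on the plus strand, 5′ to 3′). Capitals mark CCAAT on either strand (ATTGG where it lies on the opposite strand) and a match to the sterol regulatory element letters TCACNCCAC.
Nsdhl, chrX:72918271-72918520: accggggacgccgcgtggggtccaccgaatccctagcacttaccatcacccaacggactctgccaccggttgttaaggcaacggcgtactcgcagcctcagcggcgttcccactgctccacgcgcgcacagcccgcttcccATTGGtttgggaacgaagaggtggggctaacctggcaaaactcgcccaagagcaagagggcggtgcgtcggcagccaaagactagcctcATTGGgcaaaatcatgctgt
Lss, chr10:76531355-76531587: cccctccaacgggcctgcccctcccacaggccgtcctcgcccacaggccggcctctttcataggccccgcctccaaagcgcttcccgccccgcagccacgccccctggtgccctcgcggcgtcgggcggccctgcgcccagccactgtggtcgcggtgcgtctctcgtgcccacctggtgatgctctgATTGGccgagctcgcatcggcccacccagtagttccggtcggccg
Hmgcs1, chr13:119690101-119690350: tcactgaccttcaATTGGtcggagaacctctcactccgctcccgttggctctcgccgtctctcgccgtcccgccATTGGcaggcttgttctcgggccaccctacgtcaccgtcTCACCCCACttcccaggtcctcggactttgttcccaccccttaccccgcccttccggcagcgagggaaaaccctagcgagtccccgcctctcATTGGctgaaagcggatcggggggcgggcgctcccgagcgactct
Insig1, chr5:28071162-28071362: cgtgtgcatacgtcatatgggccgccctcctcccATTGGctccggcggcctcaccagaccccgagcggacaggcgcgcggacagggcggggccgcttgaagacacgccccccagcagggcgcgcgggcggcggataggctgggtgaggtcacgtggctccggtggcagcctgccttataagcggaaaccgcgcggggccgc
The Hmgcs1 window held 3 CCAAT matches and 1 match to the sterol element, Nsdhl held 2 CCAAT matches, and Lss and Insig1 held 1 each. RefSeq windows were found for 23 of the 28 members, and not for Fdps, Fdft1, Sqle, Stard4 and Abcg1. Over the full 250 bases, read on both strands, 20 of the 23 members (87.0%) had CCAAT in at least 1 window, against 40.0% of the 11216 tested genes with a window. Acat2, Scap and Abca1 had none. The Sp1 letters GGGCGG were found in 21 of 23 members (91.3%) and in 61.6% of tested genes, and TCACNCCAC in 1 of 23 (4.35%) and in 1.31%. Only exact matches to TCACNCCAC were counted, so a window without one may still hold a sterol regulatory element. An exact direct repeat of AGGTCA spaced by 4 bases, a strict form of the LXR element, was found in 0 of 23 members. It was found in 0 of the 11216 tested genes and in 4 of all 27025 genes in the table. A match so rare cannot tell whether a gene lacks an LXR element. Matches to different letters were counted separately and may overlap. CCAAT was thus common among the members with a window. Nsdhl, which fell, and Srebf2, which did not pass, both had it. Stard4, the other member that fell, had no window, so called members could not be compared with the rest.

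The level of each gene is first given per gene length, in the FPKM values as deposited, averaged over the 7 libraries. Hmgcs1, the synthase that makes HMG-CoA, was highest at 53.0 FPKM, followed by Acat2, a cytosolic thiolase at the entry to the pathway, at 44.4 FPKM. The sterol isomerase gene Ebp was at 33.5 FPKM and Tmem97, which encodes the sigma-2 receptor, a membrane protein that binds the lysosomal cholesterol exporter NPC1, at 29.0 FPKM. The lowest of the tested members were Abcg1 at 1.44 and Lss, the lanosterol synthase, at 1.57 FPKM. FPKM divides by the deposited gene length, which for Lss was 10787 bases, the longest of the members, so its rank depends on that length. The regulators lay close together in the middle of this range: Srebf1 was at 8.04, Insig1 at 11.0, Scap at 11.3, Srebf2 at 11.7 and Insig2 at 15.9 FPKM. Fdps, the farnesyl diphosphate synthase gene, was the one member that did not pass the filter, with 1 to 6 counts per library and a mean of 0.0560 FPKM. Its deposited span shares 7512 bases on the same strand with Gm43738, which had no counts, so reads that match both genes may not have been assigned and the Fdps level is uncertain.

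**Figure D1:**
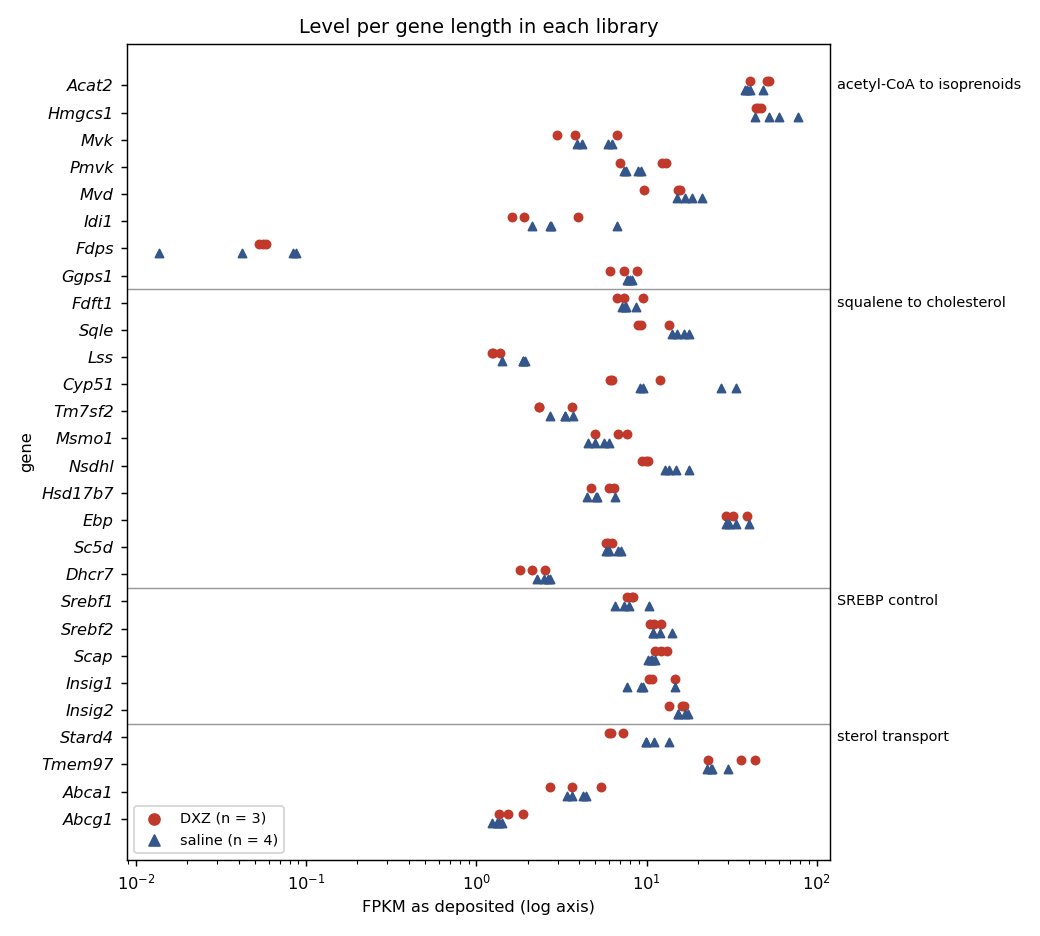
Deposited FPKM of each of the 28 members (log axis) in every library, by role in the pathway, with DXZ libraries as circles and saline libraries as triangles. Hmgcs1 and Acat2 sit highest, at means of 53.0 and 44.4 FPKM, Fdps lies far below the rest, and the circles and triangles overlap for most genes.

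The DXZ and saline groups were set against each other with edgeR (quasi-likelihood test) over all 15351 genes that passed the filter, with Benjamini-Hochberg adjustment and a threshold of 0.05. A positive log2 fold change means a higher level in DXZ. Levels below are CPM, the library's counts scaled to a common total by TMM, which compare libraries for 1 gene but not genes of different length. In DXZ kidneys 2 of the 27 tested members fell, Stard4 and Nsdhl, or 7.41%, where 2.31% of all tested genes were called lower. No member rose: edgeR called 0 higher (3.24% of all tested genes), 0 were higher at an unadjusted p below 0.05 (14% of all tested genes), and 0 by DESeq2 or limma voom. The groups did not overlap, with DXZ lower, for 4 members, or 14.8%, against 11.3% of all tested genes. With DXZ higher this held for 0 members, against 12.8% of all tested genes, and in either direction for 24.1% of all tested genes. An unadjusted p below 0.05 was found for 5 members, all of them lower in DXZ, or 18.5%, against 11.4% of all tested genes that were lower at that p and 25.4% that were lower or higher. Of the 27, 15 had a log2 fold change below 0 (55.6%, against 48.7% of all tested genes), and their median was -0.083, against 0.011 over all tested genes. On the lower side the members' shares were thus above those of all tested genes only by margins of a few genes. With both directions counted, the members' shares without overlap and at an unadjusted p below 0.05 were below those of all tested genes. The count of 2 called lower depended on single libraries: it was 3 without DXZ 1, 1 without saline 1, saline 2 or saline 3, and 0 without DXZ 2, DXZ 3 or saline 4. Without DXZ 2 the same test called 0 genes higher and 1 lower in the whole table.

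**Figure D2:**
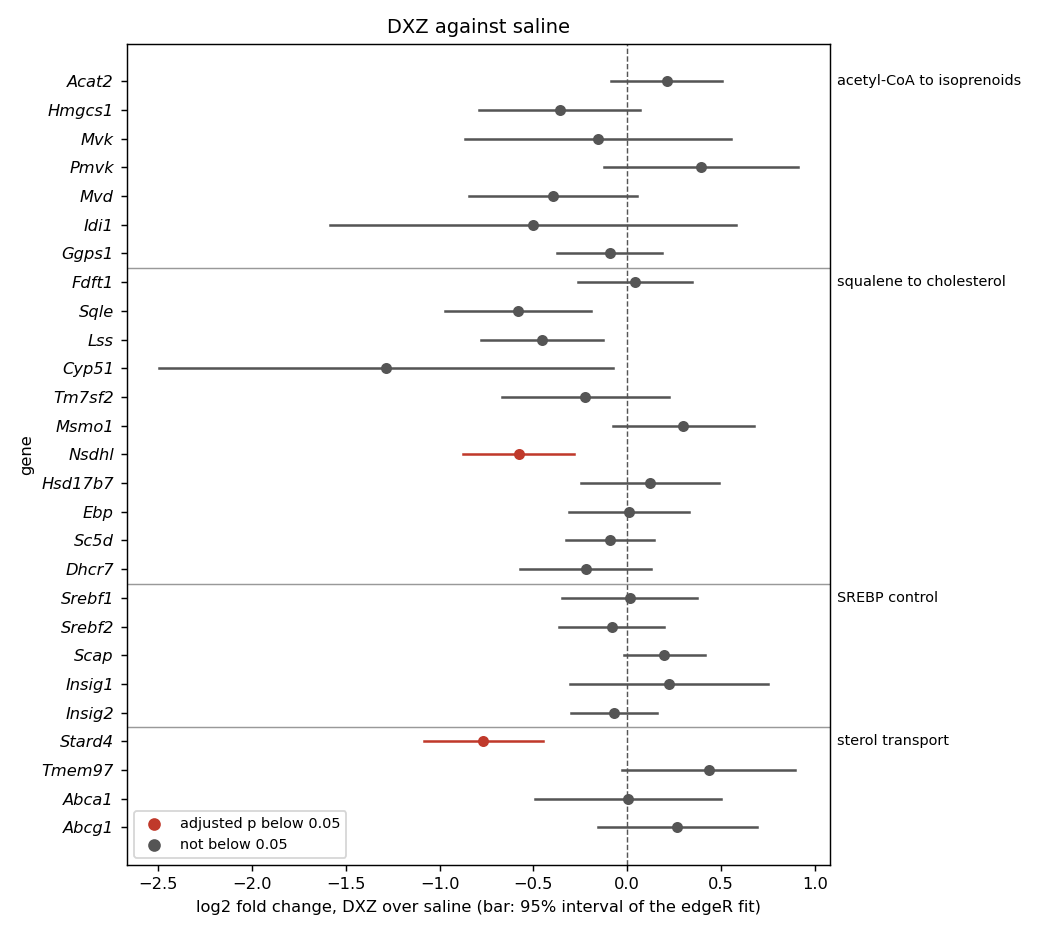
Log2 fold change of DXZ over saline for the 27 tested members with the 95% interval of the edgeR fit, by role. The intervals of Stard4 and Nsdhl (red, adjusted p below 0.05), Sqle, Lss and Cyp51 lie below 0, and those of the other 22 members include it.

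Total counts ran from 16058157 to 18133736 per library, with 20803 to 21827 genes detected. The libraries of each group differed among themselves far beyond counting noise, so no library had been deposited more than once. Kidney identity was plain from the proximal tubule markers, all 15 of which were tested. Their summed level was 8964 to 12170.1 CPM in DXZ kidneys and 15009.9 to 23422 CPM in saline kidneys, and 7 of them, including the phosphate transporter Slc34a1 and the endocytic receptor Lrp2, fell. The largest part of each DXZ sum was Pck1, which did not pass (log2 fold change -0.21, edgeR adjusted p = 0.719). At an unadjusted p below 0.05, 14 of the 15 were lower, against 11.4% of all tested genes. The median log2 fold change of the list was -1.41. Of 11 injured tubule markers 4 rose (Krt8, Krt18, Krt20 and Plaur), and the summed level of all 11 was 22175 to 36598 CPM in DXZ and 8322 to 23810.4 CPM in saline kidneys. Most of this sum was Spp1, at 16663 to 27621 CPM in DXZ and 6465 to 20087 CPM in saline kidneys. Spp1 did not pass (log2 fold change 0.47, edgeR adjusted p = 0.526). In bulk kidney, fewer cells of a type and less RNA per cell cannot be told apart. Endothelial markers summed to 884, 240.3 and 153 CPM in DXZ 1, 2 and 3 and to 465 to 828 CPM in saline, and macrophage markers to 427, 141 and 83.5 CPM and to 123 to 259 CPM, so DXZ 1 stood apart from the other DXZ libraries on both. Of 13 macrophage markers 1 rose, Cd68, and of 10 endothelial markers 0 were called, with 0 at an unadjusted p below 0.05. In the adrenal cortex, which borders the kidney and is rich in cholesterol, Cyp11b1, Cyp11b2 and Nr5a1 are defining genes, and all 3 were at 0 in every library, while the list of 7 summed to 3.10 to 3.72 CPM in DXZ and 4.46 to 5.11 CPM in saline, nearly all of it Star. The adipocyte list summed to 120.4 to 272 CPM in DXZ and 76.2 to 220.2 CPM in saline, with 0 of 6 called (1 with an unadjusted p below 0.05, and higher) and the groups overlapping. The hepatocyte list summed to 278 to 549 CPM in DXZ and 559 to 1846 CPM in saline, ranges that did not overlap, with 0 of 6 called (1, Cyp2e1, with an unadjusted p below 0.05, and lower). Cyp2e1 alone had 121, 133 and 280 CPM in DXZ 1, 2 and 3, against 1721, 425, 471 and 884 CPM in saline 1, 2, 3 and 4. For each of the other genes of this list, Alb, Apoa2, Ttr, Serpina1a and Fgb, the groups overlapped. Over the 7 libraries Alb was at 0.90 to 10.7 CPM and Apoa2 at 2.20 to 4.35 CPM. Ttr was at 15.2 to 53.1 CPM, Serpina1a at 32.6 to 154 CPM and Fgb at 23.8 to 215 CPM. The part of these cell types in the results below was not tested.

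In the first stage, from acetyl-CoA to the isoprenoid diphosphates, edgeR called 0 of 7 tested enzymes in either direction (0 at an unadjusted p below 0.05, and 0 by DESeq2 or limma voom), and the median log2 fold change was -0.16. Hmgcs1 had 211, 217 and 204 CPM in DXZ 1, 2 and 3, against 359.7, 279, 202 and 242 CPM in saline 1, 2, 3 and 4. The DXZ libraries were close together and below 3 of the saline libraries, while saline 3 was lower still, so the groups overlapped. The log2 fold change was -0.36 (95% interval -0.79 to 0.067, edgeR adjusted p = 0.267). Mvd, the decarboxylase that makes isopentenyl diphosphate, was at -0.40 (95% interval -0.85 to 0.054, edgeR adjusted p = 0.250). Mvk, the mevalonate kinase, was at -0.16, and Ggps1, which makes geranylgeranyl diphosphate for protein prenylation, at -0.094. Acat2 and Pmvk, the phosphomevalonate kinase, had positive log2 fold changes of 0.21 and 0.39, and neither passed (edgeR adjusted p = 0.347 and 0.314). Idi1, the isopentenyl diphosphate isomerase, is described library by library because of its spread, a choice made after its values were seen. It had 14.2, 5.68 and 6.67 CPM in DXZ 1, 2 and 3, against 23.5, 9.57, 9.65 and 7.46 CPM in saline 1, 2, 3 and 4. Saline 1 stood far above every other library, and with DXZ 1 next highest the groups overlapped. The log2 fold change of Idi1 was -0.50 with all libraries (edgeR adjusted p = 0.548), -0.014 without saline 1 and -1.02 without DXZ 1, and none of these passed.

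The second stage, from farnesyl diphosphate through squalene to cholesterol, held 11 of the 27 tested members and 4 of the 5 with an unadjusted p below 0.05. Of its 11 enzymes 1 fell, 0 rose, and the groups were apart, DXZ lower, for 3: Nsdhl, Sqle and Lss. Over all tested genes 2.31% were called lower and 3.24% higher, and the groups were apart, DXZ lower, for 11.3%. At an unadjusted p below 0.05, 11.4% of all tested genes were lower. The stage's median log2 fold change was -0.22. Nsdhl, the sterol dehydrogenase that helps remove the methyl groups of lanosterol (chromosome X, 72918557 to 72958514, plus strand, GRCm38), had 29.7, 28.4 and 27.0 CPM in DXZ 1, 2 and 3, against 51.2, 42.6, 36.9 and 38.7 CPM in saline 1, 2, 3 and 4. Each DXZ library lay below each saline library. The mean was 28.4 ± 1.36 CPM in DXZ kidneys (SD, n = 3) and 42.3 ± 6.37 CPM in saline kidneys (SD, n = 4), and Nsdhl fell by 0.58 on the log2 scale (SE 0.13, edgeR adjusted p = 0.0444), with 457 to 893 counts per library. Nsdhl kept this call without DXZ 1 (edgeR adjusted p = 0.0463) and lost it without any one of the other 6 libraries, with log2 fold changes between -0.64 and -0.48. Nsdhl also missed the threshold by limma voom (adjusted p = 0.0523) and by limma on log2(FPKM + 1) of all genes (adjusted p = 0.0874).

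Sqle, the squalene epoxidase and a rate-limiting step of the later pathway, had 76.5, 49.0 and 51.9 CPM in DXZ 1, 2 and 3, against 84.2, 99.5, 78.3 and 92.2 CPM in saline 1, 2, 3 and 4. All DXZ values were below all saline values, although DXZ 1 came within a few CPM of saline 3. Sqle had a log2 fold change of -0.58 (95% interval -0.97 to -0.19) and did not pass (edgeR adjusted p = 0.0819). It passed without DXZ 1 (-0.81, edgeR adjusted p = 0.0187), by limma voom (-0.67, adjusted p = 0.0424) and by DESeq2 (-0.59, adjusted p = 0.0218). Lss, which folds squalene epoxide into lanosterol, had 13.9, 13.2 and 15.0 CPM in DXZ 1, 2 and 3, against 20.98, 15.3, 20.5 and 20.2 CPM in saline 1, 2, 3 and 4. The groups were separate by a narrow margin, since saline 2 lay close to DXZ 3. Its log2 fold change was -0.46 (95% interval -0.78 to -0.13, edgeR adjusted p = 0.0941). Cyp51, the lanosterol demethylase, is given by library because it had the lowest fold change of the members, a choice made after its values were seen. Cyp51 had 54.0, 27.5 and 27.0 CPM in DXZ 1, 2 and 3, against 148, 122, 40.9 and 41.8 CPM in saline 1, 2, 3 and 4. Saline 1 and saline 2 formed a high pair and the other 5 libraries a low range, with DXZ 1 inside the saline range. The log2 fold change was -1.29 (95% interval -2.50 to -0.078) and did not pass (edgeR adjusted p = 0.173), but passed by DESeq2 (adjusted p = 0.0406).

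**Figure D3:**
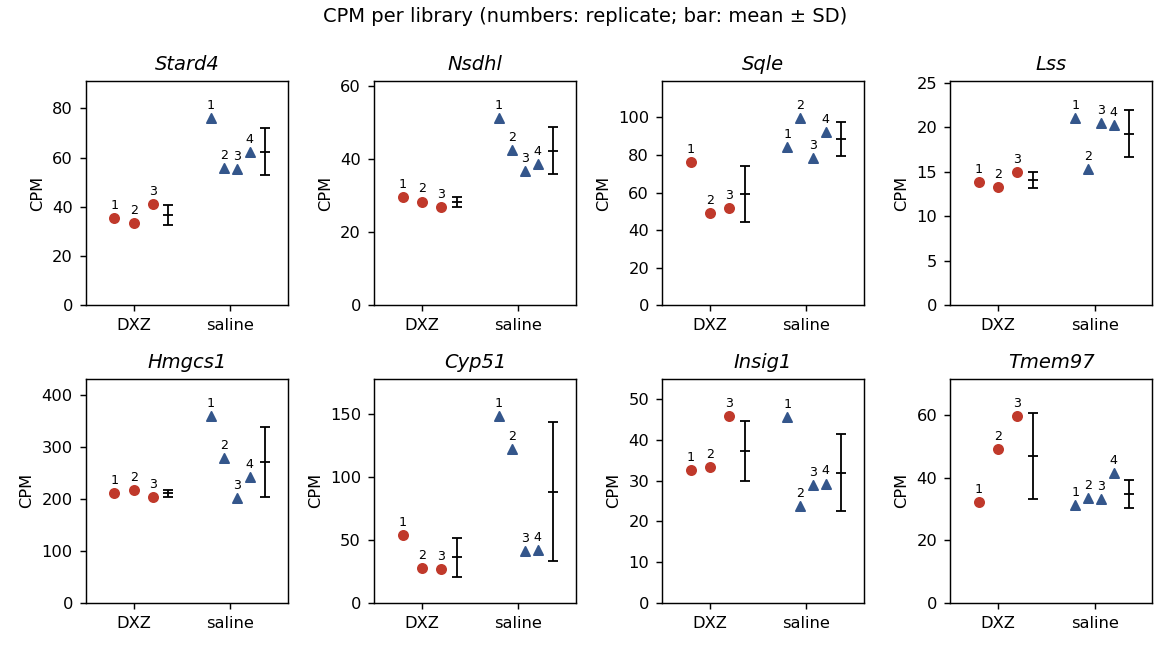
CPM per library for 8 members, DXZ left of saline, numbered by replicate, with the group mean ± SD beside the points (n = 3 DXZ, n = 4 saline). DXZ lies below saline without overlap for Stard4, Nsdhl, Sqle and Lss, while saline 1 and saline 2 set the wide saline range of Cyp51 (40.9 to 148 CPM).

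The other 7 enzymes of this stage did not pass. Tm7sf2, a sterol reductase, and Dhcr7, which makes cholesterol from its immediate precursor and is mutated in human Smith-Lemli-Opitz syndrome, had log2 fold changes of -0.22 and -0.22. Sc5d, a sterol desaturase, was at -0.093, Ebp at 0.0097 and Fdft1, the squalene synthase, at 0.041. Msmo1, the methylsterol oxidase that acts just ahead of Nsdhl, was at 0.30 (95% interval -0.076 to 0.67), and Hsd17b7, the ketoreductase that acts after it, at 0.12 (-0.25 to 0.49). Members of the demethylation steps thus had estimates on both sides of 0, and only the interval of Nsdhl among these 3 excluded 0. The Fdft1 count is uncertain, since its span overlaps Ctsb, a far more abundant lysosomal protease gene on the opposite strand, by 774 bases, and whether counting used strand is not given in the sources used here. Cyp51 overlaps Akap9 on the opposite strand by 166 bases, and Tm7sf2 shares 9356 bases on the same strand with Vps51, so those counts may also be mixed.

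Of the 5 control genes edgeR called 0 in either direction, 0 had an unadjusted p below 0.05, and DESeq2 and limma voom called 0. Srebf2 had 89.7, 74.8 and 79.9 CPM in DXZ 1, 2 and 3, against 102, 78.6, 78.5 and 86.0 CPM in saline 1, 2, 3 and 4. DXZ values lay within or just below the saline range. The log2 fold change was -0.083, and the 95% interval of -0.36 to 0.20 includes no change, a moderate decrease and a smaller increase. Srebf1, whose products control mainly fatty acid synthesis, had 47.8, 43.4 and 46.3 CPM in DXZ 1, 2 and 3, against 58.8, 41.8, 44.5 and 36.5 CPM in saline 1, 2, 3 and 4. The 3 DXZ libraries were tightly grouped inside a wider saline range (log2 fold change 0.013, 95% interval -0.35 to 0.37, edgeR adjusted p = 0.969). Scap was at 0.20 (95% interval -0.019 to 0.41, edgeR adjusted p = 0.234). Insig1, itself an SREBP target and a usual readout of the pathway, had 32.7, 33.3 and 45.9 CPM in DXZ 1, 2 and 3, against 45.7, 23.8, 29.0 and 29.3 CPM in saline 1, 2, 3 and 4. DXZ 3 and saline 1 were the highest and nearly equal, and saline 2 was the lowest. Insig2, which is not driven by SREBP in the same way, had 47.9, 57.7 and 56.3 CPM in DXZ 1, 2 and 3, against 53.8, 53.5, 59.1 and 60.6 CPM in saline 1, 2, 3 and 4, a narrow band with overlapping groups. Log2 fold changes were 0.22 for Insig1 (95% interval -0.30 to 0.75) and -0.072 for Insig2 (-0.30 to 0.16).

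Among the 4 transport genes 1 fell, where 2.31% of all tested genes were called lower. Stard4, a soluble carrier that moves cholesterol between membranes and an SREBP target (chromosome 18, 33199355 to 33213862, minus strand, GRCm38), had 35.6, 33.3 and 41.0 CPM in DXZ 1, 2 and 3, against 75.9, 55.7, 55.5 and 62.1 CPM in saline 1, 2, 3 and 4. Every DXZ library was below every saline library, with a gap of more than 10 CPM between DXZ 3 and saline 3. The mean was 36.6 ± 3.97 CPM in DXZ kidneys (SD, n = 3) and 62.3 ± 9.56 CPM in saline kidneys (SD, n = 4), and Stard4 fell by 0.77 on the log2 scale (SE 0.14, edgeR adjusted p = 0.0294), with 551 to 1324 counts per library. Stard4 kept its call without DXZ 1, saline 1, saline 2 or saline 3, and lost it without DXZ 2 (edgeR adjusted p = 0.0934), DXZ 3 (adjusted p = 0.0581) or saline 4 (adjusted p = 0.0871), with log2 fold changes between -0.86 and -0.66. It passed by DESeq2 and limma voom and missed the threshold by limma on log2(FPKM + 1) of all genes (adjusted p = 0.0692).

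Tmem97 had 32.4, 49.2 and 59.8 CPM in DXZ 1, 2 and 3, against 31.4, 33.5, 33.2 and 41.5 CPM in saline 1, 2, 3 and 4. DXZ 2 and DXZ 3 were above all saline libraries, and DXZ 1 lay at their lower end. Tmem97 had a log2 fold change of 0.43 (95% interval -0.027 to 0.89) and did not pass (edgeR adjusted p = 0.221). With DXZ 1 left out Tmem97 passed, at 0.64 (edgeR adjusted p = 0.0373), the opposite direction to Stard4. Abca1, which loads cholesterol onto apolipoprotein A-I, had 38.9, 55.8 and 28.3 CPM in DXZ 1, 2 and 3, against 44.0, 38.2, 46.1 and 35.5 CPM in saline 1, 2, 3 and 4. DXZ 2 was the highest and DXZ 3 the lowest of all libraries, so the DXZ range enclosed the saline range. The Abca1 log2 fold change was 0.0022 (95% interval -0.49 to 0.50), and its sign differed between the settings tried. Abcg1, which passes cholesterol to mature HDL, had 7.83, 5.50 and 6.26 CPM in DXZ 1, 2 and 3, against 5.39, 5.77, 5.56 and 4.995 CPM in saline 1, 2, 3 and 4. DXZ 1 stood above the rest and was also the library highest in the macrophage and endothelial marker sums, whose part in the Abcg1 level was not tested. For Abcg1 the log2 fold change was 0.27 (95% interval -0.15 to 0.69, edgeR adjusted p = 0.399).

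**Figure D4:**
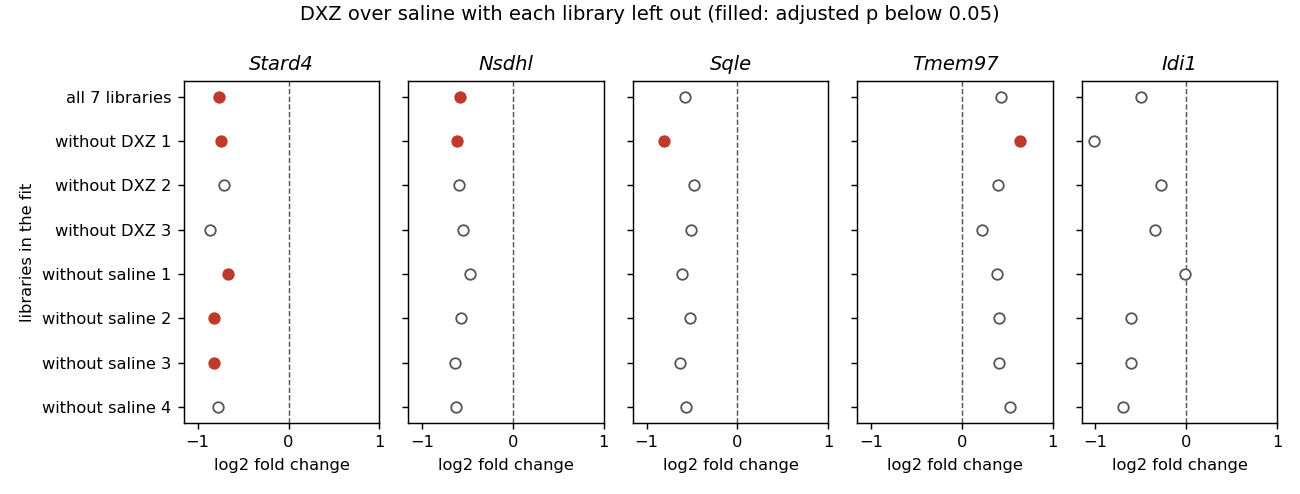
Log2 fold change of DXZ over saline for 5 members with all 7 libraries and with each library left out in turn; filled points have an edgeR adjusted p below 0.05. Stard4 and Nsdhl stay below 0 throughout but lose their call in 3 and 6 of the 7 fits, Sqle and Tmem97 pass without DXZ 1, and Idi1 moves to -0.014 without saline 1.

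The saline libraries were not alike in this pathway. Saline 1 was the highest of all 7 libraries for 13 of the 27 tested members and for 10 of the 18 enzymes, while it was the highest for 19.4% of all tested genes. Hmgcs1, Mvd, Idi1, Lss, Cyp51, Nsdhl, Srebf2 and Stard4 were among these 13. DXZ 2 was the lowest library for 10 of the 27 members, against 19.2% of all tested genes. The summed level of the 19 enzymes was 827, 795 and 811 CPM in DXZ 1, 2 and 3, against 1170.0, 988, 805 and 883 CPM in saline 1, 2, 3 and 4. The DXZ libraries lay within a narrow range that included saline 3, and saline 1 and saline 2 stood highest. Saline 1 was also the highest library for the summed proximal tubule markers (23422 CPM) and the lowest for the injury genes Havcr1 and Lcn2 (69.4 and 112 CPM). Among the other injured tubule markers it was the lowest library for Krt18, Krt20, Plaur and Spp1. It was not the lowest for Krt8, Vcam1, Cd44, Clu and Sox9. The part of tubule state in the levels of the members was not tested. Within saline the highest library exceeded the lowest by 3.63 times for Cyp51 and 3.15 times for Idi1. The median of this ratio was 1.34 over the members and 1.38 over all tested genes, so Cyp51 and Idi1 were wide while the members in general were not.

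**Figure D5:**
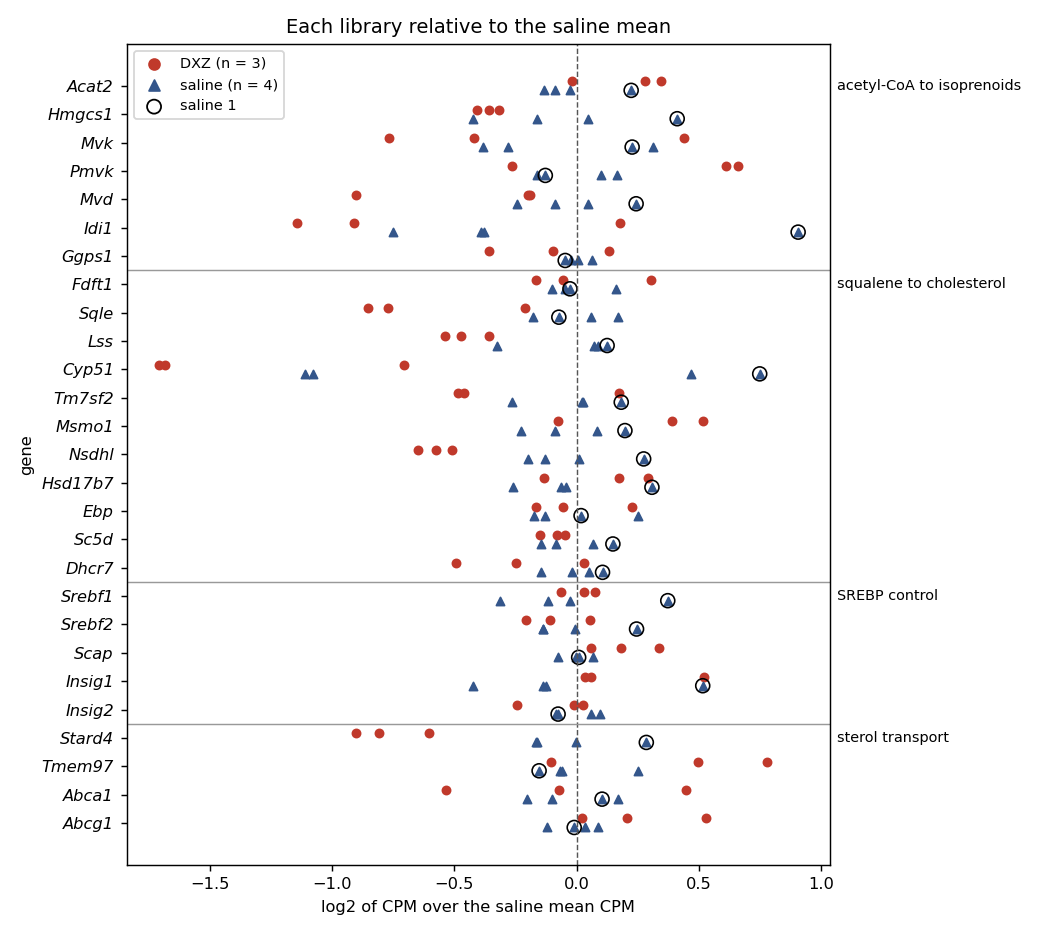
Log2 of each library's CPM over the saline mean CPM for the 27 tested members, with DXZ libraries as circles above saline libraries as triangles and saline 1 ringed. The ringed point is the right-most of the 7 libraries for 13 members, and all DXZ points lie left of all saline points for Sqle, Lss, Nsdhl and Stard4.

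Lists of neighbouring genes, nearly all of them outside the 28, were read from the same fit. Over all tested genes, 2.31% were called lower and 3.24% higher, which are the shares to set beside the counts of each list. Acat1, a mitochondrial thiolase, had a log2 fold change of -0.75 (95% interval -1.39 to -0.11) and did not pass (edgeR adjusted p = 0.140). Of 14 tested genes of SREBP processing and of protein turnover in the pathway, 1 fell and 0 rose, at a median log2 fold change of -0.15. Erlin1, an endoplasmic reticulum lipid-raft protein that restrains SREBP activation, had 46.7, 38.5 and 33.9 CPM in DXZ 1, 2 and 3, against 96.2, 87.1, 64.6 and 76.9 CPM in saline 1, 2, 3 and 4. DXZ values were all below saline values, and Erlin1 fell by 1.03 on the log2 scale (SE 0.17, edgeR adjusted p = 0.0217), a call lost without DXZ 2, DXZ 3 or saline 4 and kept without any one of the other 4 libraries. Of 26 genes of sterol traffic and storage 3 fell and 1 rose. Osbpl9 and Osbpl8, oxysterol-binding lipid transfer proteins, had log2 fold changes of -0.69 and -0.63, and Nceh1, a hydrolase of cholesterol esters, of -0.48 (edgeR adjusted p = 0.0390, 0.0398 and 0.0434). Scarb2, a lysosomal membrane protein that can carry cholesterol, rose by 0.57 on the log2 scale (edgeR adjusted p = 0.0304). The calls of Osbpl9 and Nceh1 were lost without any one of the 7 libraries. The call of Osbpl8 held only without saline 3, and that of Scarb2 only without DXZ 1 or saline 3.

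The list of the LXR receptors and their targets also held the receptor gene Nr1h4, which is not an LXR gene, and the members Abca1, Abcg1 and Srebf1. Of its 10 tested genes 1 fell and 0 rose. The gene that fell was Mylip, a ubiquitin ligase induced by LXR, at -0.46 (edgeR adjusted p = 0.0486). Among 6 tested genes of oxysterol metabolism Cyp27a1, the mitochondrial sterol hydroxylase, fell, at -0.69 on the log2 scale (edgeR adjusted p = 0.0377). In the isoprenoid branches 1 of 14 fell, Nus1, a subunit of the enzyme that makes dolichol, at -0.57 (edgeR adjusted p = 0.0486), and 0 rose. The fatty acid synthesis genes, which SREBP-1 governs, had 1 of 19 tested members higher and 0 lower, with a median of -0.20, against -0.19 for the 18 tested cholesterol enzymes. The higher gene was Mid1ip1, an activator of acetyl-CoA carboxylase, which rose by 1.001 on the log2 scale (edgeR adjusted p = 0.0204). Leaving out 1 library at a time, Mid1ip1 lost its call without DXZ 2 or saline 4. Cyp27a1 kept it only without DXZ 1 or saline 1, Mylip only without DXZ 1, and Nus1 only without saline 3. At an unadjusted p below 0.05, 1 gene was higher and 3 lower among the SREBP-processing genes, and 0 and 3 among the LXR genes. Among the isoprenoid genes 1 was higher and 2 lower, and among the fatty acid genes 2 were higher and 4 lower. Among the genes of sterol traffic and storage 4 were higher and 3 lower, and among those of oxysterol metabolism 1 and 1. Among 6 further tested genes of sterol synthesis and uptake, Acat1 included, 0 were higher and 2 lower. Over all tested genes 14% were higher and 11.4% lower at that p. No test of a difference between these lists was made.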

How the data were processed

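Total kidney RNA was sequenced in 7 libraries, 3 labelled DXZ and 4 labelled saline. The authors deposited 1 table of raw counts per gene and 1 of FPKM for the same 54532 genes. Per the submitters' processing notes HISAT2, StringTie and the build mm9 were used; no source used here gives the counting program or its strand setting. Of the 54409 gene identifiers found in GENCODE M21, 98.3% had the GRCm38 start and end, so the gene coordinates are those of GRCm38 whatever build the reads were aligned to. In the deposited tables the FPKM of a gene is its count divided by its length and by 1 constant per library, so FPKM is no independent measurement.

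Counts were tested with edgeR 4.0.16 in R 4.3.3: filterByExpr with group labels (15351 of 27180 genes with a count), TMM scaling, a quasi-likelihood fit of group with no other covariate, and Benjamini-Hochberg adjustment over all tested genes. Intervals are 95% intervals of the fitted log2 fold change. CPM values use TMM-scaled library sizes. The members and all lists were chosen with earlier results of these data known. Values by library are given for members that passed with all libraries or with 1 left out, and for Hmgcs1, Sqle, Lss, Srebf1, Srebf2, Insig1, Insig2, Abca1 and Abcg1; those of Idi1 and Cyp51 were added after their values were seen. From other lists, every gene that passed is named, or up to 2 of lowest p where none passed; some genes are not reported here. The alternatives were DESeq2 1.42.0, limma 3.58.1 (voom, and log2 FPKM with a pseudocount of 1 or 0.1), other scaling and filters, a replicate block, and leaving out libraries. The procedure was tested on simulated counts. Promoter letters were searched by text match in RefSeq windows.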

Additional observations from a re-analysis of the deposited data

Results flagged for a closer look

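The saline group, with 4 libraries, was examined for a single value far from the others, and the 3 DXZ libraries were too few for this. Idi1 in saline 1 was at 23.5 CPM, while the nearest saline library was at 9.65 CPM, and leaving saline 1 out moved the log2 fold change of Idi1 from -0.50 to -0.014. Lss in saline 2 was at 15.3 CPM, while the nearest saline library was at 20.2 CPM, and leaving saline 2 out moved the log2 fold change of Lss from -0.46 to -0.55 (edgeR adjusted p = 0.0668). The examination covered 27 members, and chance marks about 5% of such groups.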

How the results depend on the processing

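With the members, 486 fold changes were recomputed over 18 alternatives: 14 lost a call, 7 gained one, no called value changed sign, and 8 members with no call changed sign. Members called lower numbered 4 by DESeq2 (all genes 1105 higher, 906 lower), 0 with limma on log2(FPKM + 1) without a filter (90 higher, 55 lower), and 3, with 1 higher (Tmem97), without saline 1 and DXZ 1 (632 higher, 700 lower), against 498 higher and 355 lower in all genes by edgeR. Leaving out 1 library at a time gave 0 to 1 members higher, 0 to 3 lower, a member median of -0.12 to -0.014, and 0 to 792 genes higher and 1 to 782 lower over the whole table. Same-numbered DXZ and saline libraries did not deviate together (correlations 0.27, -0.0998 and 0.24), and no DXZ library correlated best with its own number. A replicate block gave 0 members called and 46 genes higher and 39 lower, with Stard4 at an adjusted p of 0.0857 and Nsdhl at 0.0838 in edgeR, and 6 members lower and 1 higher at an unadjusted p below 0.05. Scaling, filter, robust fit, voom and filtered FPKM settings left the counts of members called within 1.5 times. The cause of these differences was not tested. Fdps, with few counts, entered only the 3 fits with no filter on low values before the fit.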

Other observations

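The genes of fatty acid synthesis, the other arm of SREBP control, had negative log2 fold changes for 14 of the 19 tested, of which 0 passed the edgeR test and 4 had an unadjusted p below 0.05. The other 5 had positive log2 fold changes, and 2 of them, Mid1ip1 and Elovl6, had an unadjusted p below 0.05. Mid1ip1 passed the edgeR test (1.001, adjusted p = 0.0204) and Elovl6 did not (0.44, adjusted p = 0.158). The groups did not overlap, with DXZ lower, for 5 of the 19 tested genes, where 11.3% of all tested genes behaved so. They did not overlap, with DXZ higher, for 1 of the 19, Mid1ip1, against 12.8% of all tested genes. Acss2, which makes acetyl-CoA from acetate, had 79.1, 59.9 and 71.7 CPM in DXZ 1, 2 and 3, against 181, 128, 88.3 and 126 CPM in saline 1, 2, 3 and 4. Every DXZ library was below every saline library, and the log2 fold change was -0.90 (95% interval -1.42 to -0.37, edgeR adjusted p = 0.0598). Fads2, a desaturase of polyunsaturated fatty acids, was at -0.70 (edgeR adjusted p = 0.0661), and Acly, Acaca and Tecr were at -0.34, -0.31 and -0.31. Fasn, the fatty acid synthase, was at 0.022 (95% interval -0.66 to 0.70). Saline 1 was the highest library for 10 of these 19 genes, as it was for 10 of the 18 cholesterol enzymes. These genes were named after their values were seen.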
